A study of Mus musculus with 6 samples.

Results

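The constitutive proteasome is described here through 36 genes: the alpha and beta subunits of its core particle, the ATPases and other subunits of its regulatory particle with assembly chaperones that share their gene names, and the alternative activators Psme3 and Psme4. They were chosen by gene symbol from a list that leaves out the immunoproteasome, and each of the 36 had 1 row among the 29322 genes of the deposited table. The values are from bulk RNA-seq of adult mouse lung mesenchyme, with 3 libraries of Yeti+/- cells, whose gain-of-function Ifng allele raises interferon-gamma, and 3 of wild-type cells. The sort kept cells without CD45, CD31, Epcam or DAPI staining, which mark leukocytes, endothelium, epithelium and dead cells, and the labels state tamoxifen injection for both groups. Cultured cells are mentioned in the extraction protocol, and which allele tamoxifen acts on is not stated. Nothing says whether the 3 libraries of a group came from separate mice, so p-values measure the spread between these libraries, which may be technical.

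The proteasome degrades proteins tagged with ubiquitin. Its core particle is a barrel of stacked rings in which the outer alpha rings gate the entrance and the inner beta rings carry the proteolytic sites, made by Psmb5, Psmb6 and Psmb7. The regulatory particle binds ubiquitin chains, removes them and unfolds the substrate with a ring of ATPases. Interferon-gamma is known to induce replacement catalytic subunits, Psmb8, Psmb9 and Psmb10, which take the places of Psmb5, Psmb6 and Psmb7 in newly built core particles, and the activator subunits Psme1 and Psme2. The resulting immunoproteasome produces peptides that suit presentation on MHC class I molecules.

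Most constitutive proteasome genes stood slightly higher in Yeti cells, and nearly all of these differences were too small to pass the test one by one. The authors' deposited table gives 1 log2 fold change of Yeti over wild-type per gene with its standard error (SE) and no value per library, so levels per sample cannot be shown and fitted levels per group, computed from each gene's mean and fold change, are given instead. An adjusted p of 0.05 (DESeq2 Wald test, Benjamini-Hochberg) was passed in the authors' deposited table by 1 of the 36 genes, the alpha subunit gene Psma5, which was higher. That is 2.78% of the members, against 2.84% of all genes with an adjusted p called in either direction, 1.85% called higher and 0.994% called lower. Among the 8693 genes within the members' range of mean counts, 3.17% were called, 2.25% higher and 0.92% lower, so the members' count is at the background. Without adjustment, 5 members (13.9%) had a p under 0.05 and were higher and 0 were lower in the authors' deposited table. These were Psma3, Psma4, Psma5, Psmb2 and Psmd7. The shares were 5.28% higher and 4.0% lower among all genes, and 6.32% higher and 3.59% lower within the members' range of mean counts. Above 0 stood 34 of the 36 (94.4%), against 49.8% of all genes with an adjusted p and 51.9% of those within the members' range of mean counts, in the authors' deposited table. The members' median log2 fold change was 0.13, a factor of 1.10, with a range from -0.05 to 0.33, while the median of all genes was 0.00 and that of genes in the same range of mean counts 0.01. All members were measured in the same libraries with the same scaling, so their fold changes are not independent of each other. In bulk libraries, fewer cells of a type and less RNA per cell cannot be told apart.

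The members' intervals, taken gene by gene, were narrow. Like the p-values, they measure the spread between these libraries, which may be technical. In the authors' deposited table, SEs of the members ran from 0.09 to 0.19, with a median of 0.12, against 0.27 over all genes and 0.16 over genes in the same range of mean counts. The largest unadjusted p that was called was 0.00142, a log2 fold change of 3.19 times its SE, so a member needed a log2 change of 0.30 to 0.60 (1.23-fold to 1.51-fold) to pass. The 95% interval, taken as the fold change and its SE, lay within 1.5-fold either way for 36 of 36 members in the authors' deposited table, against 40.5% of all genes and 72.2% of genes in the members' range of mean counts. The highest upper bound was 1.44-fold and the lowest lower bound 0.773-fold. The smallest fold change of the 5 inducible genes described further on was 1.63, that of Psme1. Its 95% interval, 1.399 to 1.905, begins below the highest upper bound of the members, so these intervals overlap.

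**Figure D1:**
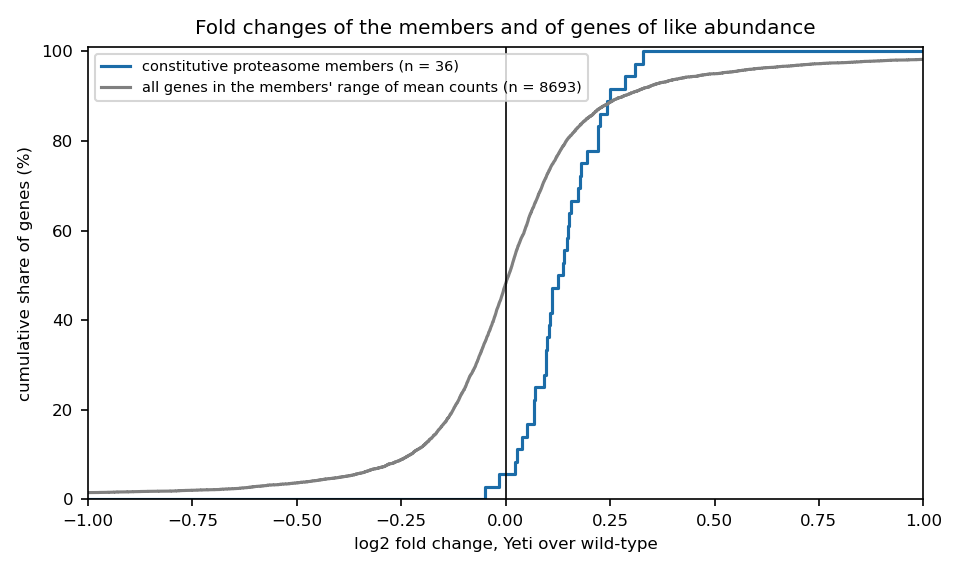
Cumulative share of genes (y axis, percent) by log2 fold change of Yeti over wild-type (x axis) for the 36 constitutive proteasome genes and for all 8693 genes in the same range of mean counts. The members' curve is steep and lies mostly right of 0, between -0.05 and 0.33, while the wider set crosses 0 near its middle and spreads to both sides.

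The alpha ring held the highest fold changes of the constitutive genes. All 7 of its genes stood above 0 in the authors' deposited table, with a median of 0.23, and 1 of 7 passed. Psma5 (ENSMUSG00000068749, GRCm38 chromosome 3, 108256926 to 108279974) had a fitted level of 1293 normalized counts in Yeti and 1029 in wild-type in the authors' deposited table. Psma5 rose by 0.33 ± 0.10 (SE) on the log2 scale, or 1.26-fold with a 95% interval of 1.09 to 1.44, adjusted p = 0.0449 by DESeq2 in the authors' deposited table. The call sat at the threshold: recentring the fold changes on genes with a mean count of at least 100 shifted them by 0.01 and gave Psma5 an adjusted p of 0.0576. Adjusting over every gene with a p-value gave 0.0650, and the range over all alternatives was 0.0407 to 0.0650. Psma4 followed at 0.31 ± 0.11 (fitted levels 1438 in Yeti and 1160 in wild-type, adjusted p = 0.0954) in the authors' deposited table and did not pass. The remaining alpha genes, whose products also form the gate and the docking surface for activators, stood lower. Psma3 had fitted levels of 2426 in Yeti and 2076 in wild-type (0.23 ± 0.11, adjusted p = 0.456 by DESeq2) in the authors' deposited table. Psma7 was at 0.24 ± 0.12, Psma1 at 0.18 ± 0.10, Psma6 at 0.10 ± 0.10 and Psma2 at 0.10 ± 0.11 in the authors' deposited table.

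The beta ring lay lower than the alpha ring by its median, and its 3 catalytic genes stood at or below that median. The values of the alpha and beta genes overlapped, and the difference between the rings was not tested. By DESeq2, 0 of the 7 beta genes passed in the authors' deposited table, and without adjustment 1 was higher and none lower at 0.05. All 7 stood above 0, with a median of 0.13, which is the value of Psmb6. The structural subunit genes Psmb2 (0.29 ± 0.11, fitted levels 1193 in Yeti and 979 in wild-type, adjusted p = 0.226), Psmb3 (0.22 ± 0.14) and Psmb4 (0.22 ± 0.12) had the highest values in the authors' deposited table, and Psmb1 (0.07 ± 0.11) the lowest. The catalytic genes Psmb5 (0.11 ± 0.15), which encodes the chymotrypsin-like subunit, Psmb6 (0.13 ± 0.11), the caspase-like, and Psmb7 (0.11 ± 0.12), the trypsin-like, stood between them in the authors' deposited table. The 95% interval of the fold was 0.886 to 1.31 for Psmb5, 0.936 to 1.27 for Psmb6 and 0.913 to 1.27 for Psmb7. These ranges leave small changes in either direction possible for each catalytic gene.

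No gene of the regulatory particle's base passed the test, and all stood above 0. Its 6 ATPase genes, whose products form the unfolding ring, had a median of 0.13, and 0 passed by DESeq2 in the authors' deposited table, with 0 under 0.05 before adjustment. Psmc4 (0.15 ± 0.11), Psmc2 (0.15 ± 0.11), Psmc5 (0.14 ± 0.09) and Psmc1 (0.11 ± 0.11) were the higher of them, and Psmc3 (0.03 ± 0.11) and Psmc6 (0.02 ± 0.12) the lower, in the authors' deposited table. The base scaffold genes Psmd2 (0.17 ± 0.13) and Psmd1 (0.10 ± 0.12) and the ubiquitin receptor gene Psmd4 (0.16 ± 0.11) were 0 of 3 by DESeq2, with 0 below 0.05 before adjustment, in the authors' deposited table. Psmd2 was the most abundant of the 36 genes, with fitted levels of 3999 normalized counts in Yeti and 3548 in wild-type in the authors' deposited table.

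The lid, which removes ubiquitin chains, held the member with the lowest fold change. Its 8 genes had a median of 0.12, and 0 passed by DESeq2 in the authors' deposited table (1 higher, 0 lower before adjustment). Psmd7, the partner of the deubiquitinase, was the highest at 0.25 ± 0.12 (fitted levels 1975 in Yeti and 1662 in wild-type, adjusted p = 0.452), and Psmd14, the deubiquitinase itself, was at 0.18 ± 0.14 in the authors' deposited table. The scaffold genes Psmd11 (0.15 ± 0.14), Psmd3 (0.14 ± 0.12), Psmd6 (0.09 ± 0.11), Psmd13 (0.07 ± 0.12) and Psmd12 (0.07 ± 0.10) stood lower in the authors' deposited table. Psmd8, another scaffold gene, was the lowest of all members at -0.05 ± 0.16, with fitted levels of 2232 in Yeti and 2310 in wild-type in the authors' deposited table. The interval of Psmd8, 0.773-fold to 1.21-fold, overlaps those of the other lid genes.

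The genes of the assembly chaperones and of the alternative activators did not pass. The chaperones that assemble the regulatory particle's base, Psmd9 (0.19 ± 0.14), Psmd10 (0.10 ± 0.15) and Psmd5 (0.05 ± 0.16), were 0 of 3 by DESeq2 in the authors' deposited table, with 0 at an unadjusted p under 0.05. Psmd10, also known as gankyrin, was the least abundant member, with fitted levels of 292 normalized counts in Yeti and 273 in wild-type in the authors' deposited table. The nuclear activators Psme3 (0.04 ± 0.19) and Psme4 (-0.02 ± 0.13) were 0 of 2 by DESeq2 in the authors' deposited table, again with 0 at an unadjusted p under 0.05. Psme4 and Psmd8 were the only members below 0 there. Psme3, the relative of the inducible activator genes, had fitted levels of 1454 in Yeti and 1417 in wild-type in the authors' deposited table.

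**Figure D2:**
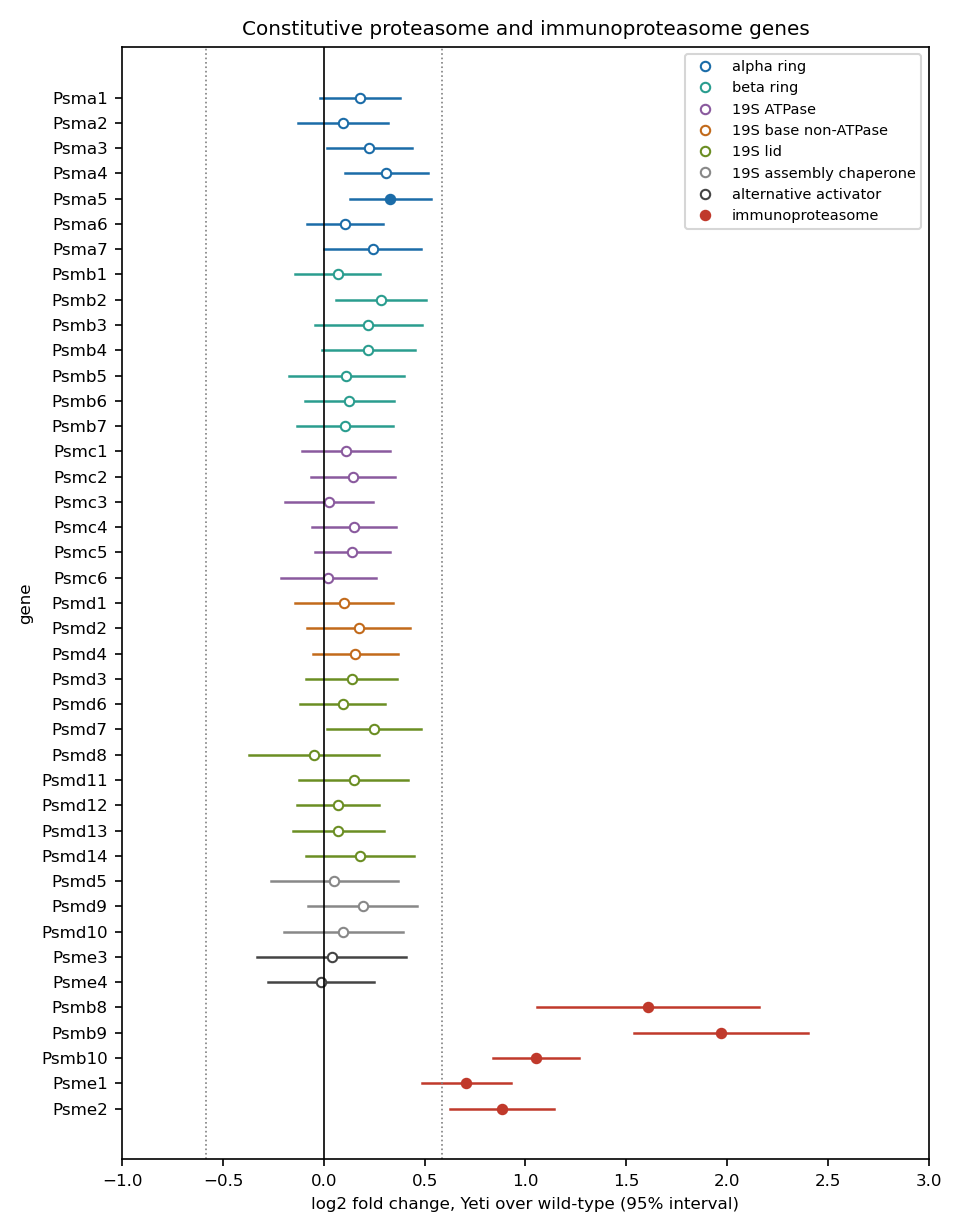
Log2 fold change of Yeti over wild-type (x axis) with its 95% interval for each gene (rows), coloured by position in the complex; filled points passed an adjusted p of 0.05 and dotted lines mark 1.5-fold either way. The constitutive genes all lie inside the dotted lines, with Psma5 alone filled, and the points of the 5 immunoproteasome genes lie to their right; 19S in the legend is the regulatory particle.

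By fold change, all the inducible genes stood above every constitutive member. All 5 immunoproteasome genes passed and were higher in the authors' deposited table, 100% against 1.85% of all genes, with a median of 1.05 against 0.13 for the constitutive members. Psmb5 had fitted levels of 532 normalized counts in Yeti and 493 in wild-type, while its replacement Psmb8 had 2194 in Yeti and 720 in wild-type (1.61 ± 0.28, adjusted p = 1.88e-06 by DESeq2), in the authors' deposited table. Psmb6 had 2119 in Yeti and 1943 in wild-type, while Psmb9 had 3430 in Yeti and 876 in wild-type (1.97 ± 0.22, adjusted p = 1.48e-16 by DESeq2), in the authors' deposited table. Psmb7 had 877 in Yeti and 816 in wild-type, while Psmb10 had 3090 in Yeti and 1490 in wild-type (1.05 ± 0.11, adjusted p = 2.92e-19 by DESeq2), in the authors' deposited table. In each pair the constitutive gene differed little between the groups, and the inducible gene was more than 2-fold higher in Yeti.

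The gap within each pair was bounded without assuming that the 2 genes vary independently. The SE of a difference was taken as the sum of both SEs, the largest that any correlation allows, and 5 pairs were compared. Among these, Psme1 and Psme2 were each set beside their relative Psme3, not beside a subunit that they replace. The log2 fold change of Psmb8 exceeded that of Psmb5 by 1.497 (95% interval 0.66 to 2.33), that of Psmb9 exceeded that of Psmb6 by 1.84 (1.19 to 2.50), and that of Psmb10 exceeded that of Psmb7 by 0.95 (0.50 to 1.40). Widened for 5 pairs, these intervals still began above 0, at 0.40, 0.99 and 0.35. Psme2 exceeded Psme3 by 0.84 (0.22 to 1.47; 0.02 to 1.67 widened), and Psme1 exceeded Psme3 by 0.67 (0.08 to 1.26). The widened interval of Psme1 against Psme3, -0.11 to 1.45, includes 0.

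Per length, the mixture of catalytic transcripts leaned to the inducible genes in Yeti. In wild-type it leaned to the constitutive genes by transcript length and was near even by coding length. Fitted levels were divided by the length of the principal transcript to compare genes, since longer transcripts collect more reads. Psmb5, Psmb6 and Psmb7 together had 4004 normalized counts per kb in Yeti and 3687 in wild-type, and Psmb8, Psmb9 and Psmb10 had 6242 in Yeti and 2226 in wild-type. The inducible genes thus made up 60.9% of the catalytic sum in Yeti and 37.7% in wild-type, or 71.3% in Yeti and 48.2% in wild-type when divided by coding length instead. By transcript length, the Psmb8 level was 2.28 times that of Psmb5 in Yeti and 0.806 times in wild-type. By coding length it was 3.94 times in Yeti and 1.4 times in wild-type, so which was higher in wild-type depends on the length used. The Psmb9 level was 0.955 times that of Psmb6 in Yeti and 0.266 times in wild-type, and by coding length 1.76 times in Yeti and 0.490 times in wild-type, so which of the pair was higher in Yeti depends on the length used. The Psmb10 level was 3.12 times that of Psmb7 in Yeti and already 1.62 times in wild-type (3.57 and 1.85 times by coding length). These shares carry no error, since the authors' deposited table has no value per library.

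**Figure D3:**
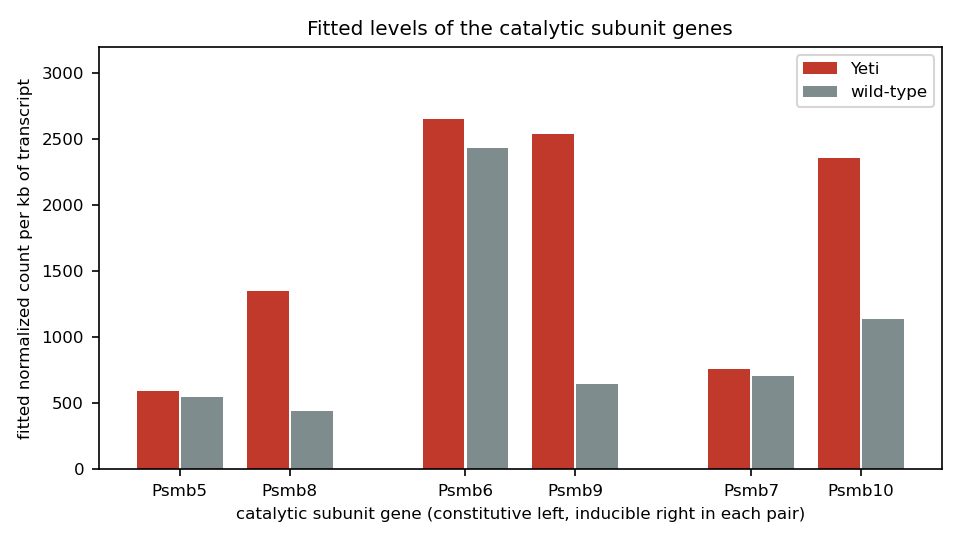
Fitted normalized counts per kb of principal transcript (y axis) of the constitutive and inducible catalytic genes in Yeti (red) and wild-type (grey) libraries, derived from the mean count and fold change, with no error bars because the table has no value per library. The constitutive bars differ little between groups, and each inducible bar is higher in Yeti.

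Promoters of the called alpha gene, of the catalytic pair Psmb5 and Psmb8, and of Psmb3 are shown to set 3 constitutive genes beside an inducible gene that rose more. Each is the 250 bases before the annotated start from RefSeq (GRCm38.p6), 5′ to 3′ on the gene's strand. The Psmb8 window lies inside the gene as placed by GENCODE, which starts Psmb8 at 34197721. Capitals mark letters matching a STAT-binding GAS element (TTCNNNGAA), an interferon regulatory factor element (GAAA repeated after a gap of 2 bases, or TTTC so repeated on the other strand) or the core of an antioxidant response element (TGANNNNGC, or GCNNNNTCA on the other strand).
Psma5 (chr3:108256676-108256925, plus strand): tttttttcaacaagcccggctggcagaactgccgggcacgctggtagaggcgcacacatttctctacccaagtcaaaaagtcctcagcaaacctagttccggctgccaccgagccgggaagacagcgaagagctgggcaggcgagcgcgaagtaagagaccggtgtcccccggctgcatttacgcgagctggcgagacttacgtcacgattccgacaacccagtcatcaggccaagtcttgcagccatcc
Psmb5 (chr14:54617996-54618245, minus strand): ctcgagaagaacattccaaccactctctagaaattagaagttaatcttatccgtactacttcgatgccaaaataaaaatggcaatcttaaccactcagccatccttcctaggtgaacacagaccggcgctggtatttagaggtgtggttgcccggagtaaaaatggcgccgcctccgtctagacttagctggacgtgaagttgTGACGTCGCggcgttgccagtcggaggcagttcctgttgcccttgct
Psmb8 (chr17:34197945-34198194, plus strand): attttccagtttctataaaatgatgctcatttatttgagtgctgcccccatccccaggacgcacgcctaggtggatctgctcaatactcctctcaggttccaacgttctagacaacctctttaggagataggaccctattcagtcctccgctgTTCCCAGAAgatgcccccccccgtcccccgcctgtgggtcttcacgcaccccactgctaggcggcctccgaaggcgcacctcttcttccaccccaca
Psmb3 (chr11:97703184-97703433, plus strand): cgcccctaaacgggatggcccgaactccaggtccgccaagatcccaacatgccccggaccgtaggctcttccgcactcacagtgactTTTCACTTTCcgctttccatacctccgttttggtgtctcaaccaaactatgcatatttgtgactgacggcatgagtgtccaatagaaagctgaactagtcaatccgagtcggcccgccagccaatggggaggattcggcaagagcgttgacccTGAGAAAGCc
The Psmb8 window holds a GAS match, TTCCCAGAA, starting 97 bases before the start, the Psmb5 window an antioxidant core, TGACGTCGC, at 47 bases, and the Psmb3 window an interferon regulatory factor element on the other strand, TTTCACTTTC, at 163 bases and an antioxidant core, TGAGAAAGC, at 10 bases. The Psma5 window holds no match to these 3 motifs.

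Among 30 members with a promoter in the table, 0 held the GAS letters, against 7.02% of all 32851 promoters of the same length, scanned on both strands. The interferon regulatory factor letters were in 3 of the 30, a higher share than the 2.98% of all promoters. This excess rests on 3 promoters. The 3 are Psmb3, Psmd4 and Psmd9, whose fold changes did not pass. Neither this excess nor the absence of GAS letters among the 30 was tested. The antioxidant core, bound by the factors Nfe2l1 and Nfe2l2 with their partners, was in 10 of the 30 (33.3%, against 35.2%), and its stricter form TGACNNNGC, a subset of the same matches, in 5 (16.7%, against 10.2%). The CCAAT box was in 12 of the 30 (40.0%, against 33.8%). Of the 5 immunoproteasome promoters, 1 held the GAS letters and 0 the interferon regulatory factor letters in this window. The windows of Psmb8, Psmb9 and Psme1, and of the members Psmd5, Psmd9 and Psmd13, lie inside the genes as placed by GENCODE. Some other windows, those of Psmb3 and Psmd12 among them, run partly past the GENCODE start. In both of these an antioxidant core lies beyond that start. Matches in all such windows depend on the start used. Matches are a description of letters in a window and say nothing of binding. Psmb1, Psmb2, Psmb7, Psmc3, Psmd3 and Psmd7 were not matched to a promoter.

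The members' levels per length differed more among themselves than between the groups. Per kb of principal transcript, the mean normalized count ran from 161 for the chaperone Psmd5 to 2545 for Psmb6, with a median of 1105. Psmb6, Psmb4 (2403) and Psma7 (2156), all of the core particle, led, and the chaperones Psmd5, Psmd10 (197) and Psmd9 (249) and the activator Psme4 (309) trailed. Per kb of coding length, Psmb4 (3589) was the highest and Psme4 (363) the lowest. Among the core particle genes, the highest and lowest levels differed 4.81-fold, from Psmb6 to Psma2 (529). Per coding length they differed 5.54-fold, from Psmb4 to Psmb5. The products of Psmb5 and Psmb6 are among those that inducible subunits can replace. Over the 36 genes the fitted counts summed to 63155 in Yeti and 57528 in wild-type, a ratio of 109.8%, with 113.9% for the core particle and 108.2% for the regulatory particle and its chaperones. The between-library coefficient of variation implied by the fitted SE was 8.06% to 15.9% for the members. It was not measured, since the authors' deposited table has no value per library.

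**Figure D4:**
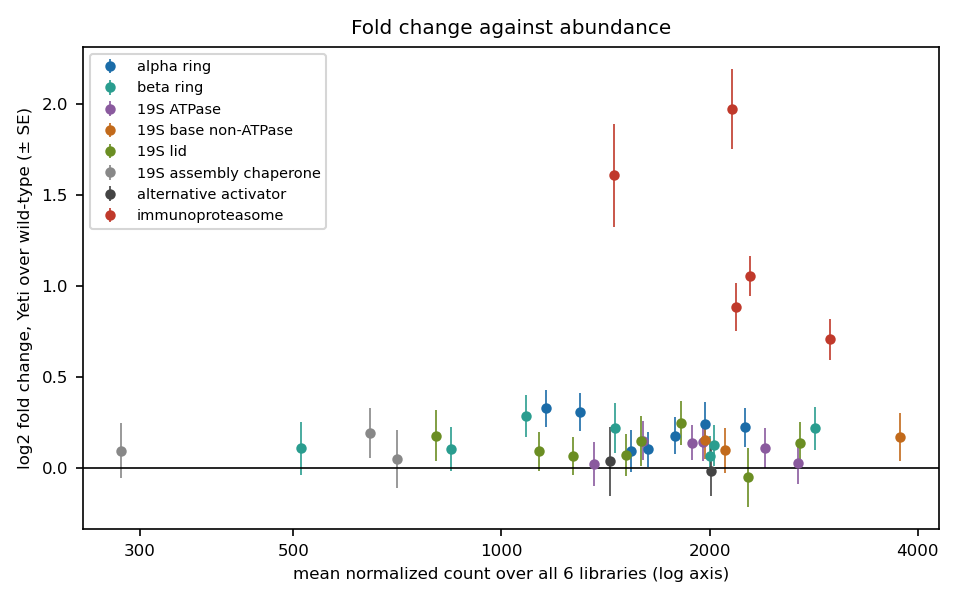
Log2 fold change of Yeti over wild-type with its SE (y axis) against the mean normalized count over all 6 libraries (x axis, log scale) for the constitutive genes by position in the complex and for the immunoproteasome. The constitutive genes stay between -0.05 and 0.33 at mean counts from 282 to 3774, and the immunoproteasome genes lie at 0.71 or above within the same range of counts.

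Related copies and overlapping genes touch a few of these values. Which read counter was used, and with what strand setting, is not given in the sources used here. At 90% identity over at least 200 bases, 13 members had similar processed or transcribed pseudogenes, of which the most abundant averaged 75.7 normalized counts in the authors' deposited table. The pseudogenes' mean counts summed to 13.0% of that of Psmb5, 4.96% of Psma5, 3.68% of Psma3, 3.27% of Psma4, and less for the others with a row. These counts do not show how reads matching both copies were handled. For Psmb5, whose copy Gm3375 aligned at 98.9% identity over 796 bases, the level may therefore be understated. Of the 26 pseudogenes, 17 had a row, and counts of the others, copies of Psma2 and Psmd11 among them, are not known here. Psme2 has a near-identical copy, Psme2b, aligned at 99.4% identity, whose mean count was 11.2% of that of Psme2. Exons of another gene with a mean count of at least 10 overlap those of Psmb7 (Nek6), Psmc3 (Slc39a13), Psmd1 (Htr2b) and Psmd13 (Sirt3) on the opposite strand. Exons of Psmb9 overlap Tap1, which itself stood at 2.17 ± 0.24 in the authors' deposited table, so without strand their shared reads cannot be told apart.

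Of the genes reported here that assemble, serve and supply the proteasome, 1 of 35 tested passed (36 had a row, tissue-restricted subunits included), which is 2.86% against 2.84% of all genes. The authors' deposited table gave them a median of 0.07, with 1 risen and 0 fallen, and 6 (17.1%) higher and 0 lower before adjustment, against 5.28% higher and 4.0% lower over all genes. Psmg4, an assembly chaperone of the core particle, rose by 0.58 ± 0.16, with fitted levels of 294 normalized counts in Yeti and 197 in wild-type, adjusted p = 0.0200 by DESeq2 in the authors' deposited table. Pomp, the maturation factor of the core particle and the most abundant of the 5 assembly factor genes, was at 0.37 ± 0.13 (adjusted p = 0.0923), and Psmg1 (0.22 ± 0.17), Psmg3 (0.18 ± 0.27) and Psmg2 (0.06 ± 0.20) were lower in the authors' deposited table. All 5 of these genes, whose products build the core particle, stood above 0. Ubb, a polyubiquitin gene and the most abundant of the associated genes reported here, was at 0.18 ± 0.12, and the ubiquitin-activating enzyme gene Uba1 at 0.09 ± 0.12, in the authors' deposited table.

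Nfe2l1, a transcription factor that drives subunit genes when proteasome activity falls, was at 0.20 ± 0.10 (adjusted p = 0.477), with fitted levels of 8759 normalized counts in Yeti and 7627 in wild-type in the authors' deposited table. Its processing enzymes' genes Ddi2 (-0.19 ± 0.17) and Ngly1 (-0.16 ± 0.15) stood below 0 without passing, in the authors' deposited table. Midn (0.57 ± 0.23, adjusted p = 0.238) and Zfand5 (0.56 ± 0.19, adjusted p = 0.0800), both known as cofactors of protein degradation, were the highest of this group in the authors' deposited table without passing, and Nfe2l2, a transcription factor gene of the oxidative stress response, was at 0.34 ± 0.24. The factors bound to the particle lay near 0, from Ube3c at -0.03 ± 0.12 to the ubiquitin receptor gene Adrm1 at 0.22 ± 0.10 in the authors' deposited table, with 0 of 8 passing by DESeq2 and 1 higher at an unadjusted p under 0.05. The most abundant of these 8 genes, listed as AI314180, was at 0.00 ± 0.11 in the authors' deposited table. The shuttle genes, Rad23b the most abundant (0.02 ± 0.15), and the segregase genes, Vcp the most abundant (0.03 ± 0.13), were 0 of 5 and 0 of 4 by DESeq2 in the authors' deposited table, with 0 at an unadjusted p under 0.05.

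**Figure D5:**
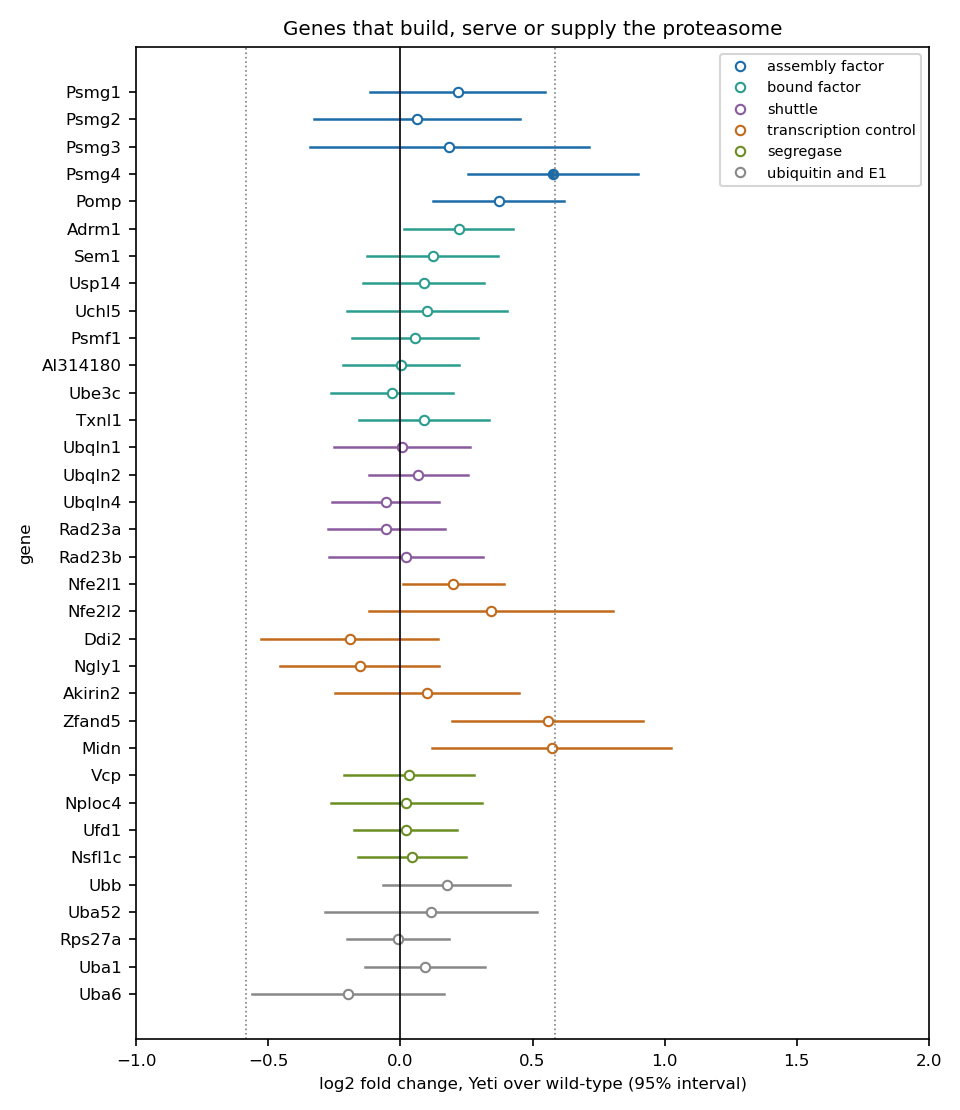
Log2 fold change of Yeti over wild-type (x axis) with its 95% interval for genes that build, serve or supply the proteasome (rows), coloured by role; filled points passed an adjusted p of 0.05 and dotted lines mark 1.5-fold. Psmg4 (0.58) alone is filled, and shuttle and segregase genes lie near 0.

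Markers of sorted-out cells were present and some moved with genotype. Over all genes the mean normalized counts summed to 26646632, a depth averaged over libraries after size-factor scaling, of which the 36 genes held 0.226%. Mesenchymal markers were abundant and 0 of 6 passed by DESeq2 in the authors' deposited table (0 at an unadjusted p under 0.05), with fitted levels summing to 556819 in Yeti and 492875 in wild-type. The 3 plasma cell markers fell, with sums of 29737 in Yeti and 107871 in wild-type, in the authors' deposited table. Of 4 endothelial markers, whose levels summed to 2631 in Yeti and 3223 in wild-type, Emcn fell (fitted 16.3 in Yeti and 64.5 in wild-type) and 2 were lower before adjustment, in the authors' deposited table. By DESeq2, 0 of 6 leukocyte markers (sums 18067 in Yeti and 15797 in wild-type; 1 higher at an unadjusted p under 0.05) and 0 of 4 epithelial markers (4069 in Yeti and 6448 in wild-type; 2 lower) passed in the authors' deposited table. Sums follow the most abundant genes of a set, and markers within a set differed in direction. By log2 fold change, 3 of 6 mesenchymal, 3 of 6 leukocyte, 3 of 4 endothelial and 3 of 4 epithelial markers were lower in Yeti. Lyz2, the most abundant leukocyte marker, had fitted levels of 9736 in Yeti and 6279 in wild-type, while the leukocyte median log2 fold change was -0.23. None of the 23 markers had a mean count of 0. The part of these cells in the members' values was not tested.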

How the data were processed

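The 6 RNA-seq libraries, 3 Yeti and 3 wild-type, were grouped by sample titles. STAR and DESeq are named without versions, with builds GRCm38 and mm10, per the submitters' processing notes. The authors' deposited table, headed as DESeq2 output, holds a mean normalized count per gene (a signal), the log2 fold change and its SE (log2), the Wald statistic (a score), and the p-value and adjusted p-value; it has no value per library. A p-value was present for 29308 of 29322 genes and an adjusted p for 20212. Recomputing the Benjamini-Hochberg adjustment gave values within 3.91e-06 of those deposited.

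Fitted levels came from the mean count and fold change, assuming equal group sizes; intervals came from the fold change and SE. Positions and lengths (APPRIS principal transcript) came from GENCODE M21 on GRCm38, matched by Ensembl identifier for 36 of 36 members, promoters from RefSeq, and copies from BLAST 2.17.0. Python 3.11.15 and scipy 1.17.1 were used. The adjustment and recentring code was tested on simulated data, which does not bear on the authors' fit. Every member is named; of other lists, the rule took genes that passed and the most abundant. The other associated genes were named after their values were seen. Of the associated genes, 1 is not reported here and is in none of their counts. The members and lists were chosen with earlier results of these data known. Adjusted p-values began at a mean count of 4.57, and the table's SE is the only measure of precision.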

Additional observations from a re-analysis of the deposited data

How the results depend on the processing

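The count of members called, 1 of 36, rests on Psma5 and moved with the setting: it was 0 (by DESeq2's p-values, with 5 members at an unadjusted p under 0.05) with no filter on the mean count, 0 with fold changes recentred on genes with a mean count of at least 100, and 0 recentred on genes in the members' range of mean counts. It was 2 at an adjusted p threshold of 0.10, where Psma4 joined. It stayed 1 over genes with a mean count of at least 10 and over protein-coding genes alone. The associated genes called were 3 at the 0.10 threshold and 1 under the others. The 5 immunoproteasome genes passed under all 6 alternatives to the deposited adjustment. The members' median was 0.12 under both recentrings, and 35 members had a 99% interval within 1.5-fold. The recentring on the members' range and the restriction to protein-coding genes were chosen after seeing the data. No paired analysis was possible because the deposited table holds no values per library, and for the same reason no replicate could be left out.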

Other observations

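By their medians, other large protein complexes, with lists chosen after the data were seen, stood nearer to 0 than the proteasome. In the authors' deposited table, the signalosome genes, relatives of the proteasome lid, had a median log2 fold change of 0.04 over 10 genes, with 8 above 0. The genes of the translation initiation factor eIF3 had a median of 0.05 over 14 genes, with 12 above 0, and those of the chaperonin CCT, which folds actin and tubulin, a median of 0.00 over 8 genes, with 4 above 0, in the authors' deposited table. None of these passed by DESeq2 in the authors' deposited table, and 0 had an unadjusted p under 0.05. The difference between these complexes and the proteasome genes, at a median of 0.13, was not tested.

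The tissue-restricted subunit genes, Psma8 of the testis and Psmb11 of the thymus, had mean normalized counts of 1.99 and 5.60 in the authors' deposited table, of which Psma8 had no adjusted p.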
